A study of Homo sapiens with 6 samples.

Results

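The transcripts of 10 genes that form, load or work with the sliding clamp of DNA replication were followed after NME2 was silenced. They were PCNA, RFC1, RFC2, RFC3, RFC4, RFC5, FEN1, LIG1, CHAF1A and CHAF1B. The genes were chosen by name, with earlier results of these data known. Every probe set annotated with exactly 1 of these symbols was taken. Each probe set combines several short oligonucleotides that read 1 transcript or a few related ones. The 10 genes had 21 probe sets, of which 18 were bright enough to be tested, with at least 1 for each gene. The whole array named 19775 genes in this way, of which 12406 were tested.

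The cells were A549, a human lung adenocarcinoma line. In 3 samples the cells had been transiently transfected with a small interfering RNA (siRNA) duplex against NME2, which encodes a nucleoside diphosphate kinase, and in 3 with control duplexes. No other treatment is named in the labels, and neither the time after transfection nor the duplex sequences are given in the sources used here. Effects of the duplex on other transcripts cannot be told apart from those of NME2 loss. The study's methods describe both transient siRNA silencing and stable short hairpin RNA clones, and the series text for these arrays names the transient kind. Replicates are called biological in the series text, but separate cultures are not described, so the spread behind the p-values may be technical. Signals are given in the order of replicates 1, 2 and 3. The NME2 probe set had signals of 1920.4, 3676 and 3216 in NME2-depleted cells and of 17862, 19389 and 21045 in control cells, so the silenced transcript was lower in every depleted sample (log2 difference -2.78, SE 0.19, limma adjusted p = 0.00032).

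PCNA is a ring-shaped trimer that slides along DNA and tethers polymerases and other enzymes to it. Replication factor C (RFC), a complex of RFC1 to RFC5, opens the ring with the energy of ATP and closes it around a primed template. On the lagging strand the flap endonuclease FEN1 trims the displaced end of each Okazaki fragment and DNA ligase I (LIG1) seals the nick, while chromatin assembly factor CAF-1, with its subunits CHAF1A and CHAF1B, deposits histones on the new DNA at PCNA. Transcripts of many of these genes are made chiefly as cells enter S phase. In RNA from a whole culture fewer cells in S phase and less RNA per cell cannot be told apart.

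No member passed the threshold. Of 18 tested member probe sets 0 had a limma adjusted p under 0.05, where 0.396% of all 27307 tested probe sets did, and adjusted p-values of the members lay between 0.192 and 0.993. At an unadjusted p under 0.05 there were 5, 4 lower and 1 higher in NME2-depleted cells, against 6.42% lower and 6.48% higher among all tested probe sets. The signals of the groups did not overlap for 3 member probe sets on the lower side and 1 on the higher side, against 8.91% and 9.66% of all. These were RFC3, RFC4 and FEN1 on the lower side and RFC1 on the higher side. With each gene represented by its brightest tested probe set, 8 of 10 members had a lower mean and the median log2 difference was -0.19, beside 49.8% with a lower mean and a median of 0.00064 over all tested genes. Over all 18 tested member probe sets 11 had a lower mean and the median was -0.12. With the probe sets of a gene averaged the median over genes was -0.14, and with the brightest probe sets but without control replicate 1 it was -0.13. Of the 10 genes 0 passed, where 0.54% of all tested genes did. Since the members were chosen with earlier results of these data known, these shares describe them and test nothing. All log2 differences are NME2-depleted minus control, on the scale of log2 array signal.

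**Figure D1:**
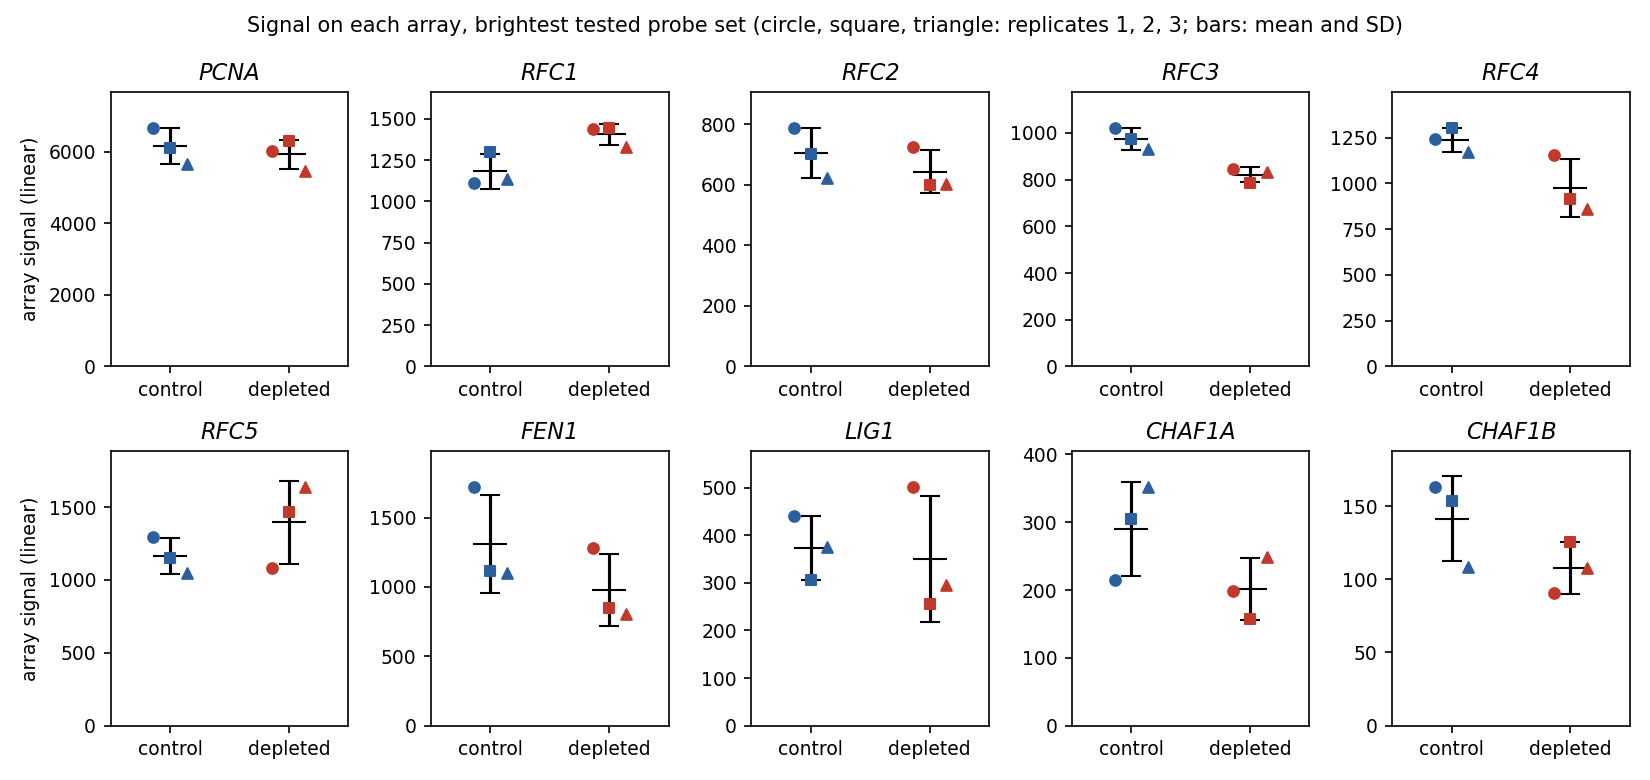
Array signal of the 10 members, brightest tested probe set, in 3 control samples (blue) and 3 NME2-depleted samples (red). The vertical axis is linear and starts at 0, symbols mark replicates 1 to 3 and bars give the mean and SD. RFC3 and RFC4 lie lower and RFC1 higher in all depleted samples, while PCNA signals lie between 5476 and 6674 in both groups.

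The clamp itself differed between the groups by less than the spread between replicates. PCNA was measured by 1 probe set, 201202_at, with 6012, 6299 and 5476 in depleted and 6674, 6122 and 5669.9 in control samples. The groups overlapped, with control replicate 1 the brightest and depleted replicate 3 the dimmest of the 6 arrays. The means were 5929 ± 418 (SD, n = 3) in depleted and 6155 ± 503 (SD, n = 3) in control cells. The log2 difference was -0.05 (SE 0.08, limma adjusted p = 0.832), with a 95% interval from -0.23 to 0.13. Its sign turned without NME2-depleted replicate 3 (0.0028) and without control replicate 1 (0.0066).

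The clamp loader subunits had differences of both signs, none past the threshold. RFC4, a small ATPase subunit of the loader read by 204023_at, had 1157, 914.6 and 858 in depleted and 1241, 1304 and 1172 in control samples. Every depleted sample was below every control sample, with depleted replicate 1 just under control replicate 3. This gave a log2 difference of -0.35 (SE 0.12, limma adjusted p = 0.231; 95% interval -0.61 to -0.10), with means of 977 ± 159 (SD, n = 3) in depleted and 1239 ± 66.0 (SD, n = 3) in control cells. Without NME2-depleted replicate 3 it was -0.27 and without NME2-depleted replicate 1 -0.48.

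RFC3, another small subunit, also lay lower in every depleted sample by its brighter probe set. This probe set, 204127_at, had 844, 784 and 833 in depleted and 1022, 972 and 930.5 in control samples, with no overlap. Depletion came with a log2 difference of -0.25 (SE 0.09, limma adjusted p = 0.291). The other tested probe set, 204128_s_at, had the same direction (-0.29, SE 0.16, adjusted p = 0.462), but depleted replicate 2, at 363, was brighter than control replicate 3, at 338.5. The third RFC3 probe set, 231119_at, had signals of 13.3 to 63.2 and was too dim to be tested.

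RFC1, the large subunit that contacts the clamp, lay in the opposite direction. Its brighter probe set, 209085_x_at, had 1438, 1446.5 and 1333 in depleted and 1110.0, 1302 and 1136 in control samples. All depleted samples were above all control samples. On the log2 scale the difference was 0.25 (SE 0.09, limma adjusted p = 0.28). The array maker gives the ending x_at to probe sets that can also bind unrelated transcripts. The other tested probe set of RFC1, 208021_s_at, had 0.08 (SE 0.11, adjusted p = 0.806), with control replicate 2, at 1224, the brightest of its 6 arrays. The third, 208133_at, was dim, at 5.2 to 35.7.

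RFC2 and RFC5, the remaining small subunits, had probe sets that disagreed in sign. For RFC2, 203696_s_at gave -0.13 (SE 0.13, limma adjusted p = 0.715) and 1053_at 0.05 (SE 0.18, adjusted p = 0.939). The value of 203696_s_at was -0.22 without NME2-depleted replicate 1, -0.22 without control replicate 3 and -0.046 without control replicate 1, and was closer to 0 (-0.08 and -0.09) without NME2-depleted replicate 2 or 3. In 1053_at the control samples alone spanned 482 to 769.8, which covered all depleted samples. For RFC5, 213734_at had 1078.5, 1468 and 1637 in depleted and 1295, 1153.5 and 1050.5 in control samples. Depleted replicates 2 and 3 were above every control sample and depleted replicate 1 was below control replicates 1 and 2. Depleted minus control, this was 0.24 in log2 (SE 0.14, adjusted p = 0.524), against -0.11 (SE 0.13) for 203209_at and 0.12 (SE 0.20) for 203210_s_at. The value of 213734_at was 0.42 without NME2-depleted replicate 1 and 0.11 without NME2-depleted replicate 3. In RefSeq the 3' parts of RFC5 and of its neighbour WSB2, a gene of the ubiquitin system, overlap, and it was not tested which of them 213734_at reads. The WSB2 probe set had 5878, 6198 and 6298 in depleted and 5215.5, 5738 and 5684 in control samples, with no overlap (0.14, SE 0.07, adjusted p = 0.409). The direction of RFC5 is therefore uncertain.

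**Figure D2:**
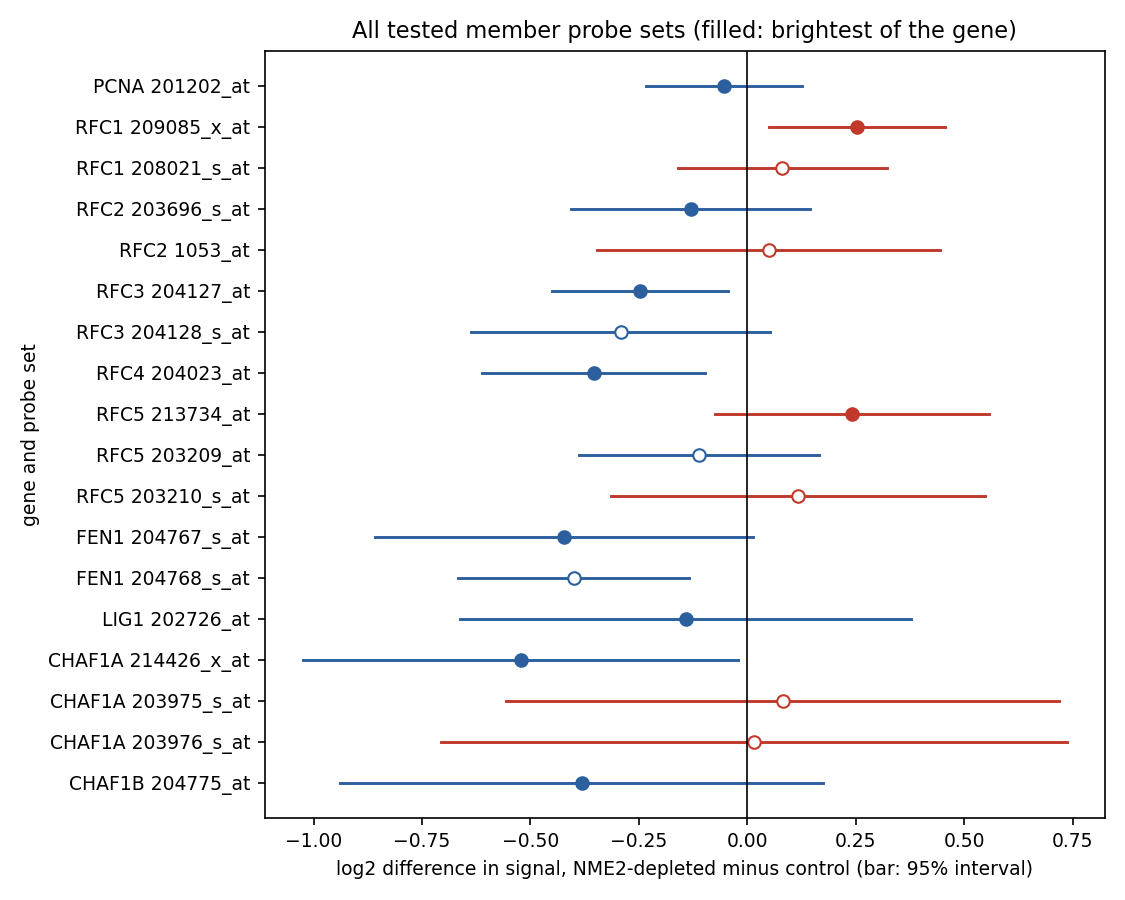
Log2 difference in signal, NME2-depleted minus control, of the 18 tested member probe sets. Points are estimates, horizontal bars are 95% intervals, and filled points are the brightest probe set of a gene. Both FEN1 and both RFC3 probe sets lie below 0, and those of RFC2, RFC5 and CHAF1A fall on both sides of it.

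FEN1, the flap endonuclease, had the lowest unadjusted p of the members, and both of its probe sets had a lower mean in depleted cells. Probe set 204768_s_at had 739, 672 and 563 in depleted and 928, 803 and 862 in control samples, with no overlap. This amounted to a log2 difference of -0.40 (SE 0.12, limma adjusted p = 0.192; 95% interval -0.67 to -0.13), with means of 658 ± 88.6 (SD, n = 3) in depleted and 864 ± 62.5 (SD, n = 3) in control cells, a 1.32-fold lower signal. The brighter probe set, 204767_s_at, had 1280.2, 849 and 805 in depleted and 1720, 1113 and 1099 in control samples. Here depleted replicate 1 was above control replicates 2 and 3, so the groups overlapped. The log2 difference was -0.42 (SE 0.20, adjusted p = 0.402), and without control replicate 1 it was -0.21. Between samples of the same replicate number it was -0.43, -0.39 and -0.45. With the replicate number as a block this probe set passed (limma adjusted p = 0.0424). In that fit 464 of all tested probe sets passed, against 108 in the main fit. Whether the numbers mark pairs was not settled. Probe set 204768_s_at had no adjusted p under 0.05 in any alternative.

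LIG1, the ligase that acts after FEN1, varied more within groups than between them. Its probe set, 202726_at, had 501, 255 and 295 in depleted and 440.5, 306 and 376 in control samples. Depleted replicate 1 was the brightest and depleted replicate 2 the dimmest of all 6 samples. Its log2 difference was -0.14 (SE 0.24, limma adjusted p = 0.846; 95% interval -0.66 to 0.38), and its sign turned without NME2-depleted replicate 2 (0.06). Without NME2-depleted replicate 1 it was -0.43.

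The CAF-1 subunits had lower means in depleted cells by their brightest tested probe sets, with groups that overlapped. CHAF1B, read by 204775_at, had 90.3, 126 and 108 in depleted and 163, 153 and 108 in control samples. Control replicate 3 lay within the range of the depleted samples. The log2 difference was -0.38 (SE 0.25, limma adjusted p = 0.573), and 1 array left out moved it to between -0.56 and -0.26.

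CHAF1A gave the largest difference among the brightest probe sets of the members, but its other 2 tested probe sets lay near 0. Probe set 214426_x_at, again of the kind that can bind unrelated transcripts, had 198, 157.5 and 249 in depleted and 215, 304 and 352 in control samples. Depleted replicate 3 was above control replicate 1. The log2 difference was -0.52 (SE 0.23, limma adjusted p = 0.368). Probe sets 203975_s_at and 203976_s_at had 0.08 (SE 0.29) and 0.01 (SE 0.33), with adjusted p-values of 0.937 and 0.993. Their mean signals lay between 74.7 and 84.1, just above the filter's 71.7. The sign of 203976_s_at turned under quantile normalisation, median centring and cyclic loess, the 1 member probe set of 18 to change sign with another scaling. The fourth CHAF1A probe set, 229808_at, was dim throughout, at 4.9, 26 and 27.3 in depleted and 5.7, 2.8 and 2.7 in control samples, and was not tested.

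Of the 6 members with several tested probe sets, RFC1, RFC3 and FEN1 had the same sign in all of them, and RFC2, RFC5 and CHAF1A did not. The other 4 members had 1 tested probe set.

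Across samples the members spread widely on each array. The plot by array gives each gene's log2 signal minus its own mean over the 6 arrays. The median of the 10 members was 0.187, 0.044 and -0.050 in control replicates 1 to 3 and 0.038, -0.174 and -0.145 in NME2-depleted replicates 1 to 3. The groups overlapped, because depleted replicate 1 lay above control replicate 3. Single members ranged from -0.59 (CHAF1A in depleted replicate 2) to 0.64 (FEN1 in control replicate 1).

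**Figure D3:**
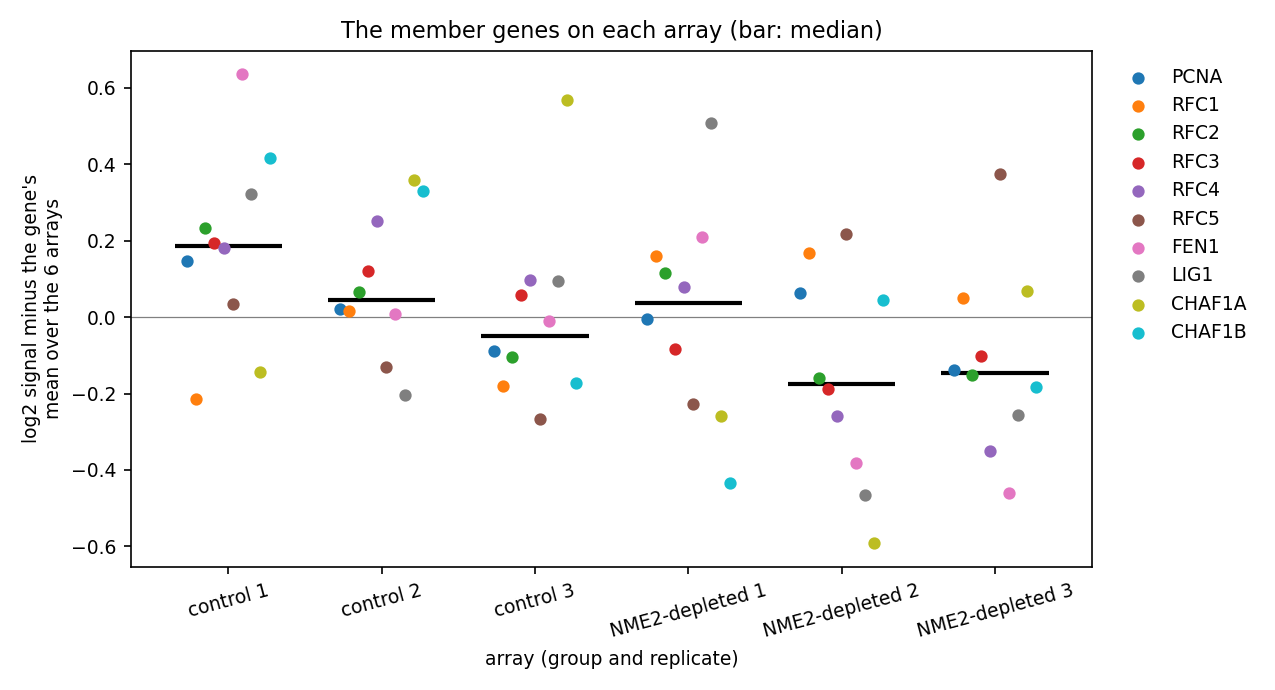
Log2 signal of each member, brightest tested probe set, minus the gene's mean over the 6 arrays. Each coloured point is a gene and the black bar is the median of the 10 genes on an array. Medians run from 0.187 in control replicate 1 to -0.174 in NME2-depleted replicate 2, and that of control replicate 3 lies within the range of the depleted samples.

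How alike the members were was described by the root mean square difference between these centred profiles over 6 arrays. It was smallest between RFC2 and RFC3 (0.110) and between PCNA and RFC2 (0.111), and largest between RFC5 and CHAF1A (0.535). Among genes whose own SD over the arrays was at least that of the pattern, the 5 closest to PCNA, out of 9539, were RIOK2 (0.018), ZNF30 (0.030), NRBF2 (0.036), FMR1 (0.038) and UQCC3 (0.040). Those closest to the mean of the 10 members were GPR107 (0.019), STRBP (0.031), SETD4 (0.033), FOSL2 (0.037) and NEDD1 (0.043), out of 8288. None of these genes passed the threshold (limma adjusted p from 0.344 to 0.96). Since they were chosen for matching these patterns, this adds no further result.

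Promoter sequences are shown for RFC3, RFC4 and FEN1, the members with a probe set without overlap on the lower side. PCNA is shown too, as the clamp they act on. The 250 bases before the annotated start of transcription are given 5' to 3' on the strand of the gene, from RefSeq on GRCh38.p14. Capitals mark E2F words or CCAAT boxes on either strand. The windows are chr13:33817899-33818148 (plus strand) for RFC3, chr3:186806483-186806732 (minus strand) for RFC4, chr11:61792661-61792910 (plus strand) for FEN1 and chr20:5119959-5120208 (minus strand) for PCNA.
RFC3: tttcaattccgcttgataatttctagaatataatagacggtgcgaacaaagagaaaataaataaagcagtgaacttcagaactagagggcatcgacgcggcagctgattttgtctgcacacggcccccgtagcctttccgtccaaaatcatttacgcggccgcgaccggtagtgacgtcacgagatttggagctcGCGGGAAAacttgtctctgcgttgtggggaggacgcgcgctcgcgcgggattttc
RFC4: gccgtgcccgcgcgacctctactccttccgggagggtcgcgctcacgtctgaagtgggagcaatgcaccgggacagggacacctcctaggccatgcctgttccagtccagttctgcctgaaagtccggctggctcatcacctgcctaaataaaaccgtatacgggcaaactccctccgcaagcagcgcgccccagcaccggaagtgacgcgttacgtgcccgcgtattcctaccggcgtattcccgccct
FEN1: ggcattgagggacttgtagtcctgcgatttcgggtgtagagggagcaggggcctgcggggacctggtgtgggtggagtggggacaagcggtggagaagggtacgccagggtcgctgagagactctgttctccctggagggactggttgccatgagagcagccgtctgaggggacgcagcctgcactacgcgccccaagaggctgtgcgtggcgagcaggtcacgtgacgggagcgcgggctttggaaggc
PCNA: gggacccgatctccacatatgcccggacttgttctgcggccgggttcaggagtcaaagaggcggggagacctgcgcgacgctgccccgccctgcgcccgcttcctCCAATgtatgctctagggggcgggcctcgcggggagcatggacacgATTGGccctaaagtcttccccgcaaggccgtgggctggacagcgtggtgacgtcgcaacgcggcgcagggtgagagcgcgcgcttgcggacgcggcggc

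E2F factors switch on many genes at the start of S phase. The E2F words searched, on both strands, were TTTGGCGC, TTTCCCGC, TTTGCCGC and TTTCGCGC. The CCAAT box was read as CCAAT and the cell cycle homology region (CHR) as TTTGAA, and overlapping matches were counted separately. Over 300 bases, from 250 before to 50 after the start, all 10 members had a window and PCNA had 2. An E2F word stood in 3 of these 11 windows, against 3.31% of 35116 promoters. They were RFC3, 55 bases before the start, LIG1, 114 before, and the other PCNA window, 59 before. A CCAAT box stood in 5 of 11 windows, against 34.6% of all, in both PCNA windows and in RFC1, RFC5 and CHAF1A. No window held the CHR word, which 15.2% of all promoters do. RFC4 and FEN1 held none of these words, so the 3 members with a probe set without overlap on the lower side shared no word. Such a match describes letters in a window and is not evidence of a bound site. The absence of these words does not show that no site is bound. How these genes are regulated was not tested.

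Other genes of the same steps were read from 6 lists with 44 tested genes, and 0 of them passed by limma in either direction. At an unadjusted p under 0.05, 3 were lower and 1 higher, against 7.75% and 7.25% of all tested genes. Of the 44, 28 had a lower mean, and the median was -0.04. The 5 genes of alternative loaders and of clamp unloading, 4 of them with a lower mean, had a median of -0.12. ATAD5, which takes PCNA off DNA, had -0.55 (SE 0.47, adjusted p = 0.682) with depleted signals from 38.3 to 146 that spanned all controls. DSCC1, part of the loader used in sister chromatid cohesion, had -0.27 (SE 0.17, adjusted p = 0.557).

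Among 3 genes of the checkpoint clamp, a PCNA-like ring loaded at DNA damage, HUS1 had 823, 723 and 691.5 in depleted and 632.5, 532.5 and 671 in control samples, with no overlap (log2 difference 0.29, SE 0.12, limma adjusted p = 0.355). Its other tested probe sets had -0.53 and -0.04, in the opposite direction. RAD1, another part of this ring, had -0.08 (SE 0.10), and its other probe sets had both signs.

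The 9 genes of primer and flap removal included the lowest p of the lists and the members. RNASEH1, a nuclease that cuts RNA in RNA-DNA hybrids, had 4243, 4345 and 4490.3 in depleted and 5171.5, 5341 and 5554 in control samples, with no overlap. The log2 difference was -0.30 (SE 0.07, limma adjusted p = 0.09). RNASEH1 passed when probe sets under the 75th percentile of brightness were left out (limma adjusted p = 0.0447). In that setting 192 of 13654 probe sets passed, against 108 of 27307 in the main fit. Another of its probe sets, 218496_at, had -0.13 (adjusted p = 0.479), also without overlap, and the third, 241343_at, 0.03 (adjusted p = 0.987). RPA1, a subunit of the single-strand binding protein RPA, had -0.15 (SE 0.10, adjusted p = 0.547). Of this list 6 of 9 had a lower mean and the median was -0.05.

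Of 3 genes of other ligation, XRCC1, the scaffold of DNA ligase III, had -0.24 (SE 0.11, limma adjusted p = 0.394). LIG4, the ligase of end joining, had 0.20 (SE 0.15, limma adjusted p = 0.627) by its brighter probe set. The other, 206235_at, had -0.03 (SE 0.19, limma adjusted p = 0.966).

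Among 7 histone chaperones, ASF1B, which passes newly made histones to CAF-1, had 202, 196 and 151 in depleted and 242, 257 and 248 in control samples. The groups did not overlap, as was the case for 10.1% of all tested genes on the lower side and 10.4% on the higher, and the log2 difference was -0.46 (SE 0.18, limma adjusted p = 0.314). NASP, a histone chaperone, had -0.20 (SE 0.10, adjusted p = 0.422). The list had 6 of 7 genes with a lower mean and a median of -0.06.

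Of 17 partners and modifiers of PCNA 10 had a lower mean and the median was -0.02. CDKN1A, the p21 inhibitor that binds PCNA, had 7241, 5720.4 and 6167 in depleted and 8839, 6856 and 7463 in control samples. Depleted replicate 1 was above control replicate 2, and the log2 difference was -0.27 (SE 0.11, limma adjusted p = 0.312). CDT1, which loads the replicative helicase and is destroyed on PCNA, had 0.67 (SE 0.34, limma adjusted p = 0.436) from dim signals of at most 156. The other CDT1 probe set, 209832_s_at, had signals of 43 to 71.5 and was too dim to be tested.

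**Figure D4:**
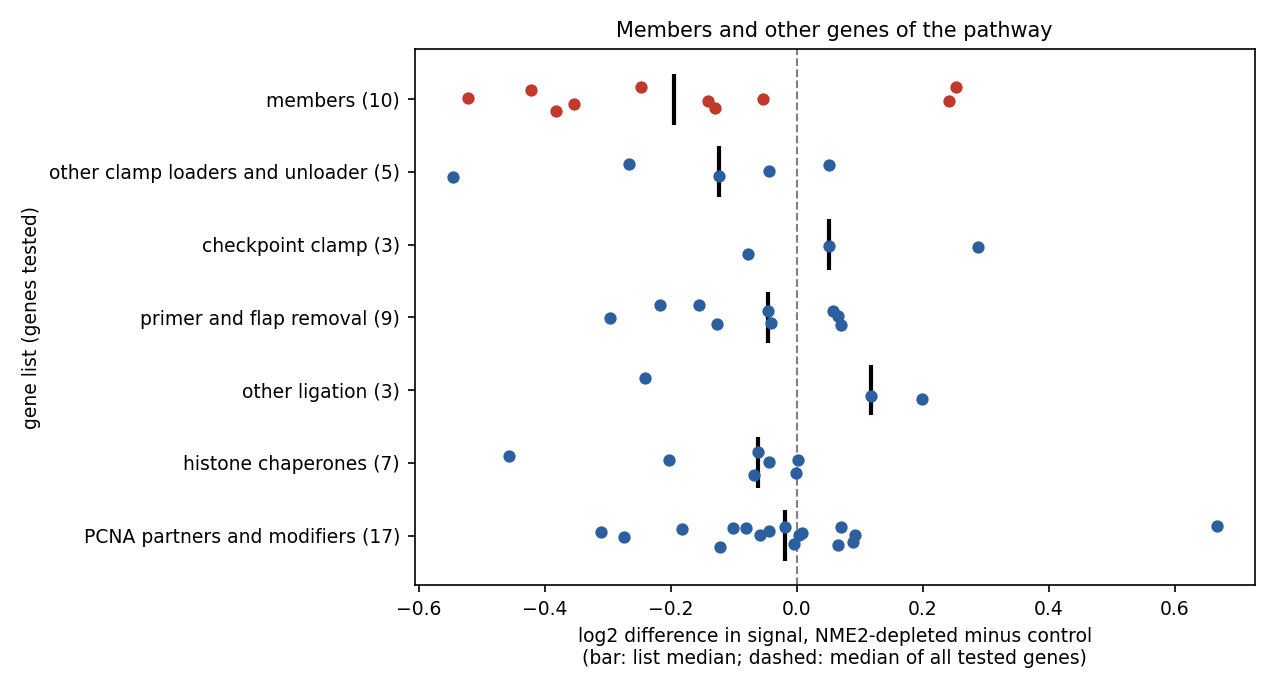
Log2 difference in signal, NME2-depleted minus control, of the 10 members (red) and of 44 other genes in 6 lists (blue), 1 probe set per gene. Black bars are list medians and the dashed line is the median of all tested genes. The median of the members is -0.19, and those of the other lists lie between -0.12 and 0.12.

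Some properties of the samples moved with the groups. Over all tested probe sets 108 passed, 32 higher and 76 lower, and with median centring 20 were higher and 107 lower. The ratio of 3' to 5' signal of ACTB, a sign of RNA quality, was 1.33 to 1.4 in NME2-depleted and 1.20 to 1.30 in control samples, and its part in the differences of the members was not tested. The same ratio of GAPDH overlapped, at 0.985 to 1.06 and 0.970 to 1.02. The 8 epithelial markers of A549 were present, with mean signals from 560.8 to 37346 and 0 past the threshold. Of these, EPCAM (log2 difference 0.71, limma adjusted p = 0.0884) and CDH1 (0.21, adjusted p = 0.324) lay higher and KRT8 (-0.24, adjusted p = 0.209) lower in every depleted sample. Summed signals of 4 blood cell markers, among them the red cell gene HBB, were 389 to 597 in depleted and 462 to 602 in control samples. Those of 6 fibroblast markers were 786.5 to 965 and 602.5 to 799, and those of 5 endothelial markers 286 to 395 and 212 to 314. The defining leukocyte marker PTPRC had means of 14.6 and 16.2, under the filter. Only 3 of the blood cell, 3 of the fibroblast and 1 of the endothelial markers reached the filter. What these signals read in a culture of 1 cell line, and their part in the differences of the members, was not tested.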

How the data were processed

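RNA of 6 samples was hybridised to Affymetrix HG-U133 Plus 2.0 arrays, 1 each, and samples were grouped by title. The authors deposited 1 linear intensity signal for each probe set, made with GCOS 1.1.1 according to the submitters' processing notes. All arrays had been scaled alike: with 2% trimmed at each end, mean signals were 500.06 to 500.07. Further settings are not given in those notes or the methods. Such scaling hides any shift shared by all transcripts. Arrays have no read depth, and 3 per group limit the precision.

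Of 54675 probe sets, 62 controls were left out, signals under 1 were set to 1, and log2 was taken. The 27307 probe sets at or above the median brightness (signal 71.7) entered limma (version 3.58.1, R 4.3.3; lmFit and eBayes with an intensity trend). P-values are two-sided, adjusted by Benjamini-Hochberg over the 27307, and the threshold was 0.05. An exact permutation test of 3 against 3 cannot go below 0.1. The fit was tested on simulated data, where it recovered none of the smallest changes set. Those changes were larger than any member difference. That no member passed therefore does not show that the members were unchanged. Genes were named from the platform annotation of probe sets with 1 symbol. NME2 was the exception, since its probe set is also annotated to NME1-NME2. The named genes are NME2, the members, and from each pathway list those past the threshold or the 2 of lowest p. WSB2 and further probe sets of named genes were added after their values were seen. Members and lists were chosen with earlier results of these data known. Alternatives covered scaling, offset, filters, probe sets, variance models, a model on each probe set alone, a replicate block and each array left out.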

Additional observations from a re-analysis of the deposited data

How the results depend on the processing

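No member probe set passed under other scalings, an offset, other filters, other variance models or with any 1 array left out. The smallest difference among the 108 probe sets that passed was 0.37 in absolute log2, and 28 of them were no larger than the largest of a member, 0.52, so most member differences lay below any size that passed. Over all tested probe sets the 108 calls became 30 with no filter, 192 with a filter at the 75th percentile, 61 without shared probe sets, 0 with no intensity trend and 19 to 70 with 1 array left out. With no intensity trend 4 of 18 member probe sets had an unadjusted p under 0.05. The share over all tested probe sets in that setting was not counted, so this is no result about the members. The change test of the methods needs probe-level data and was not run. A linear model with equal variances on each probe set alone was used in its place. At an unadjusted p under 0.05 it gave 3065 of 27307 probe sets, 3 of 18 member probe sets and 3 of 44 pathway genes. The members were RFC1, RFC3 and FEN1, and the pathway genes RNASEH1, ASF1B and UBE2A. After Benjamini-Hochberg 0 of each passed. The NME2 difference kept its size, with adjusted p = 0.228 by limma with no intensity trend and 0.204 by the model on each probe set alone. The pathway genes gave 1 call, RNASEH1, with the filter at the 75th percentile. PCNA ranged from -0.11 to 0.0066 and LIG1 from -0.43 to 0.0551 with 1 array left out, turning sign in 2 and 1 of these cases. The causes were not tested.

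Samples of the 2 groups share replicate numbers. Deviations from the group means correlated at 0.114, 0.080 and 0.070 for numbers 1 to 3. Number 1 was above the limit of 0.1 set for each pair, and numbers 2 and 3 were below it. Samples of unlike number correlated at -0.084 to 0.005, so each sample correlated best with its own number. Whether the numbers mark pairs was not settled, and the main fit left them out. With the replicate number as a block, 464 probe sets passed, 1 of them a member (FEN1 204767_s_at, -0.42, limma adjusted p = 0.0424; 0.0424 to 0.692 over its alternatives), and 2 pathway genes passed, RNASEH1 (adjusted p = 0.0312) and CDKN1A (0.0303).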
